A study of Mus musculus with 6 samples.

Results

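The ligands of the TGF-beta and activin branches, their signalling receptors and their feedback inhibitors were followed in mouse liver, as 10 genes chosen by name: the ligand genes Tgfb1, Tgfb2, Tgfb3, Inhba, Inhbb and Inhbe, the receptor genes Tgfbr1 and Tgfbr2, and the inhibitors Smad7 and Fst. They are 10 of the 31829 gene names and 13 of the 39429 probes on the array, taken from all probes that are not controls, and all 10 were bright enough to be among the 19616 genes tested. The RNA came from the non-tumour liver region of 6 male C57BL/6 mice, 5 weeks old at the start, 3 on a control diet and 3 on a moderately carbohydrate-restricted diet (called restricted here). Both groups carried the same liver cancer model, a transposon vector with activated human HRAS, a hairpin RNA against p53 and a fluorescent marker, delivered to the liver through the tail vein by hydrodynamic injection. No mouse without the vector was included. Separate mice are the replicates. The sample labels give 1 week of feeding before the injection and 5 weeks of diet, the text of the series gives 2 and 4 weeks, and the series title adds plant compounds to the restricted diet that the sample labels do not name. The question was whether these signalling genes differed between the diets.

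TGF-beta is secreted in a latent form that matrix and cell-surface proteins hold and release. The active ligand joins a type II and a type I receptor kinase, which phosphorylate SMAD transcription factors, while Smad7 blocks that step. Activins are dimers of inhibin beta subunits that signal through related receptors, and follistatin (Fst) binds and neutralises them. In liver, TGF-beta drives collagen production by stellate cells and restrains hepatocyte growth, and the beta C and beta E subunits are made mainly by hepatocytes.

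Each mouse gave 1 single-colour array. The arrays had 23527 to 25816 probes well above background, and the 75th percentile of the signal lay between 287 and 574. Values below are log2 signals relative to that percentile of the same array, so that 0 is the percentile and each unit is a doubling. They show how a gene differs between mice and cannot rank genes against each other. Slide 1 held the 3 control mice and restricted mouse 1, and slide 2 held restricted mice 2 and 3. Differences were therefore also fitted with slide as a block and within slide 1. As slide 2 held no control mouse, both fits rest on restricted mouse 1 against the 3 control mice and give the same difference. With the block, restricted mice 2 and 3 add only to the estimate of spread. All 12 hepatocyte markers were measured, and none was below background on every array. On the restricted diet 2 of them rose, where 14.6% of all genes rose.

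The probes of Tgfb1 and Tgfb2 are shown because these paralogs gave the 2 clearest ligand differences and their probes are partly alike. In each 60-base probe, the capitals mark the stretch where they align best without gaps, 41 bases with 28 identical. Each has a reading frame without a stop. The next most alike pair of probes of different members shared 26 of 57 aligned bases. The Tgfb1 probe lies at chr7:26489877-26489936 (plus strand) and the Tgfb2 probe at chr1:188449333-188449392 (minus strand), both on mm9 as the array files give it.
Tgfb1: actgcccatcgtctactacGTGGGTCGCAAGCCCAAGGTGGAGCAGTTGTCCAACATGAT
Tgfb2: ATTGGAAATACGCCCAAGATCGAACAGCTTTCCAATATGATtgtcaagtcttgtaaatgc
Whether either transcript adds signal on the probe of the other was not tested. The other probe of Tgfb2 aligned with that of Tgfb1 at 21 of 52 bases.

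Of the 10 genes, 5 fell in mice on the restricted diet, none rose and 5 did not pass the test (limma, adjusted p under 0.05 over all genes tested). Over all 19616 genes, 12.8% fell and 14.6% rose, 27.5% in all. Those that fell were Tgfb1, Tgfb2, Inhba, Smad7 and Fst, that is, 3 of 6 ligands, both inhibitors and neither receptor. The mice of the diets did not overlap for 6 of the 10, all lower on the restricted diet, against 18.8% of all genes lower without overlap and 44.8% without overlap in either direction. The median difference (restricted minus control, log2) was -1.25 over the 10 and 0.12 over all genes. The count was 3 with slide 1 alone, and 3 without control mouse 1, restricted mouse 1 or restricted mouse 2. Calls over all genes were 3687, 4258 and 3394 without control mouse 1, restricted mouse 1 or restricted mouse 2, in place of 5386. In RNA from whole tissue, fewer cells of a type and less RNA per cell cannot be told apart.

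**Figure D1:**
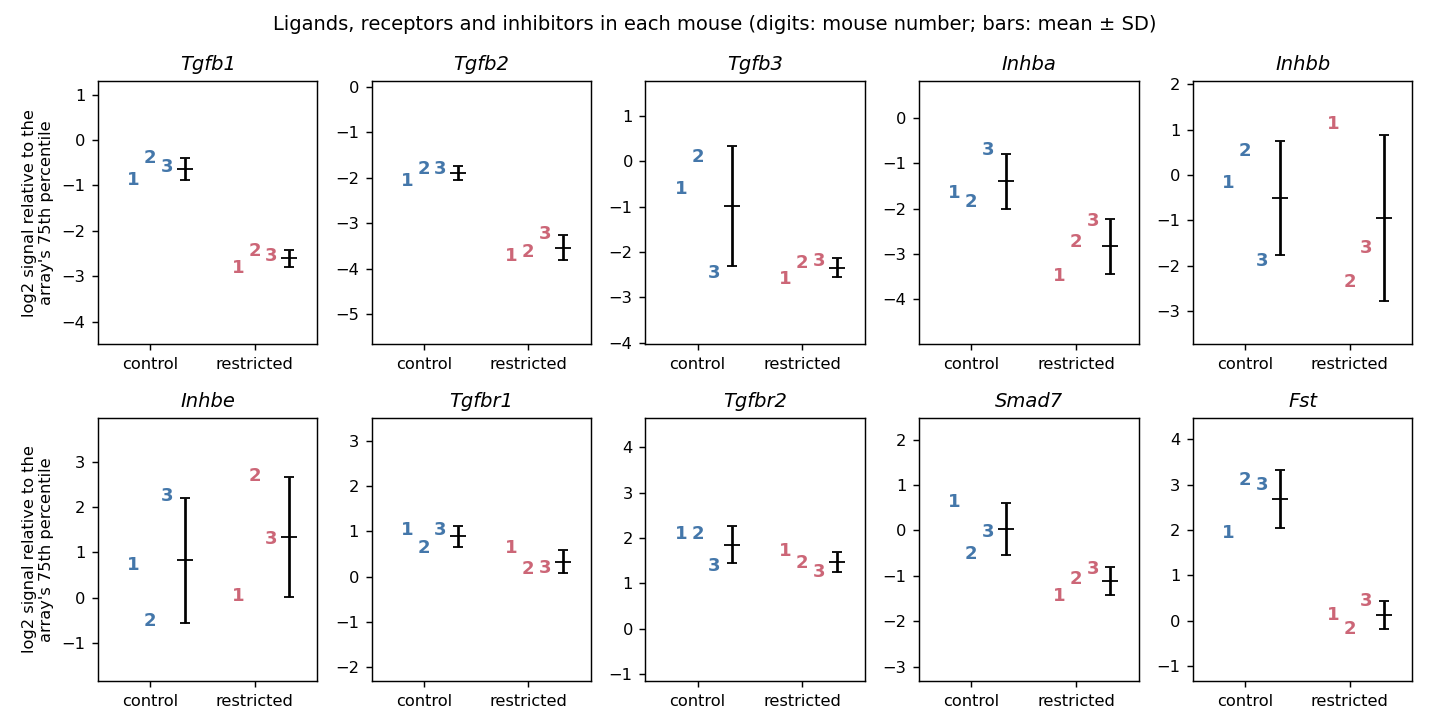
Log2 signal of each gene relative to the 75th percentile of the array, in the 3 control and 3 restricted mice; digits are mouse numbers, black marks are means and bars SD, and every panel spans the same number of log2 units. Tgfb1, Tgfb2 and Fst separate the diets widely, while Tgfb3, Inhbb and Inhbe spread within a diet.

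Tgfb1, the isoform most studied in liver fibrosis and immune control, measured -0.89, -0.40 and -0.60 in control mice 1 to 3 and -2.81, -2.45 and -2.55 in restricted mice 1 to 3. All 3 restricted mice lay far below the lowest control mouse. The means were -0.63 ± 0.24 and -2.60 ± 0.18 (SD, n = 3 each), and Tgfb1 fell by 1.97 on the log2 scale (SE 0.20, limma adjusted p = 0.000822), a 3.93-fold difference. The probe is printed 10 times on the array, and the SD between its spots within an array was 0.0329 to 0.163, smaller than the gap between the diets. With normexp background correction the difference was -1.24 (adjusted p = 0.00127), and with slide as a block it was -2.18 (adjusted p = 0.00543, or 0.0142 within slide 1).

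Tgfb2, an isoform known for its roles in heart and eye development, measured -2.07, -1.80 and -1.80 in the control mice and -3.73, -3.65 and -3.23 in the restricted mice, again without overlap. The means were -1.89 ± 0.16 and -3.54 ± 0.27, and it fell by 1.65 (SE 0.20, adjusted p = 0.00162). Its second probe (mm9 chr1:188447534-188447593), well above background in 3 control mice and 1 restricted mouse, differed by -1.56 (SE 0.45, adjusted p = 0.0406 over every probe kept, of which 26.6% were called). Its values were -3.53, -3.48 and -3.06 in the control mice and -5.93, -4.76 and -4.07 in the restricted mice. The Tgfb2 difference shrank to -0.71 with normexp background correction, still called (adjusted p = 0.0179), and was -1.84 with slide as a block (adjusted p = 0.00990, or 0.0181 within slide 1).

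Tgfb3, an isoform of palate development and wound repair, split the control mice. It measured -0.61 and 0.09 in control mice 1 and 2 but -2.46 in control mouse 3, close to the -2.59, -2.24 and -2.21 of the restricted mice. The diets therefore overlapped, and the difference of -1.35 (SE 0.60) did not pass (adjusted p = 0.14). Without control mouse 3 it was -2.09 and passed (adjusted p = 0.00432), and without control mouse 2 it was -0.81 (adjusted p = 0.353). Array weights, which count divergent arrays less, gave -1.95 (adjusted p = 0.00997). The low value of control mouse 3 was seen on all 10 spots of the probe, which ran from -2.60 to -2.37 on that array, and the SD between spots was at most 0.084 on any array. The spread of Tgfb3 within a diet (pooled SD 0.94) was larger than that of 97.7% of all genes tested.

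**Figure D2:**
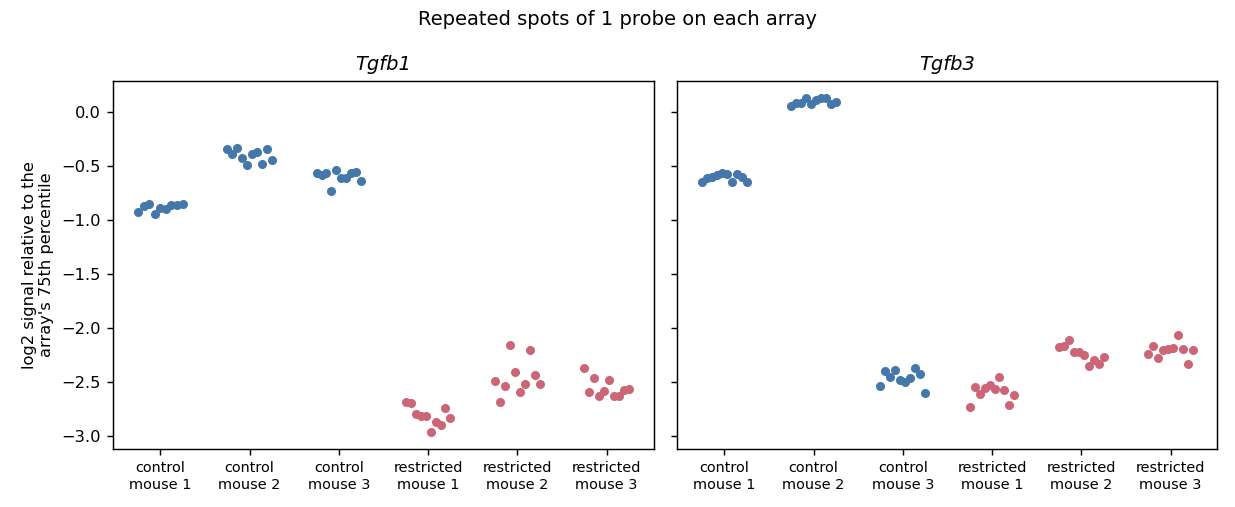
Each point is 1 spot of the Tgfb1 probe (left) or the Tgfb3 probe (right), as log2 signal relative to the 75th percentile of the array, for the 6 mice. Spots of a probe lie close together within an array, and for Tgfb3 those of control mouse 3 lie with those of the restricted mice.

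Inhba, which encodes the beta A subunit of activin A, measured -1.66, -1.84 and -0.70 in the control mice and -3.47, -2.73 and -2.28 in the restricted mice. The diets did not overlap, and it fell by 1.43 (SE 0.40, adjusted p = 0.0383; probe mm9 chr13:16118634-16118693). The call ended without control mouse 1, 2 or 3 or restricted mouse 1 or 2 (adjusted p = 0.0722, 0.0554, 0.0709, 0.0916 and 0.0904), with normexp background correction (-0.75, adjusted p = 0.0821) and with no background filter (0.0712). With slide as a block the difference was -2.07 (adjusted p = 0.0374), and within slide 1 it did not pass (adjusted p = 0.0573).

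Inhbb, for the beta B subunit, and Inhbe, for the hepatocyte beta E subunit, spread widely within both diets. Inhbb measured -0.17, 0.53 and -1.91 in the control mice and 1.12, -2.37 and -1.60 in the restricted mice, so the highest and the lowest of all 6 values were both in restricted mice. Its difference of -0.43 (SE 0.98) did not pass (adjusted p = 0.778). Inhbe measured 0.73, -0.51 and 2.25 in the control mice and 0.03, 2.69 and 1.30 in the restricted mice, a difference of 0.51 (SE 0.85, adjusted p = 0.69). The pooled SD within a diet was 1.57 for Inhbb and 1.35 for Inhbe, above that of 99.8% and 99.5% of all genes. With slide as a block the sign of both turned, to 1.64 for Inhbb (adjusted p = 0.286) and -0.79 for Inhbe (adjusted p = 0.676).

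The order of the mice by Inhbb was nearly the reverse of their order by Inhbe. The 3 mice highest in Inhbe (restricted mouse 2, control mouse 3 and restricted mouse 3) were the 3 lowest in Inhbb, from both diets. Pearson's r over the 6 mice was -0.94 (exact permutation p = 0.0111, two-sided) and Spearman's rho -0.943 (exact permutation p = 0.0167). Among the 6 pairs of the 4 members whose diets overlap, chosen after their values were seen, the adjusted p was 0.0667 and 0.1, so the relation failed the correction. Without restricted mice 1 and 2, the farthest from the median of Inhbb, r was -0.947 over 4 mice. Within slide 1 r was -0.933 over 4 mice, given as a description with no test, and slide 2 held too few arrays (2) for a value.

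**Figure D3:**
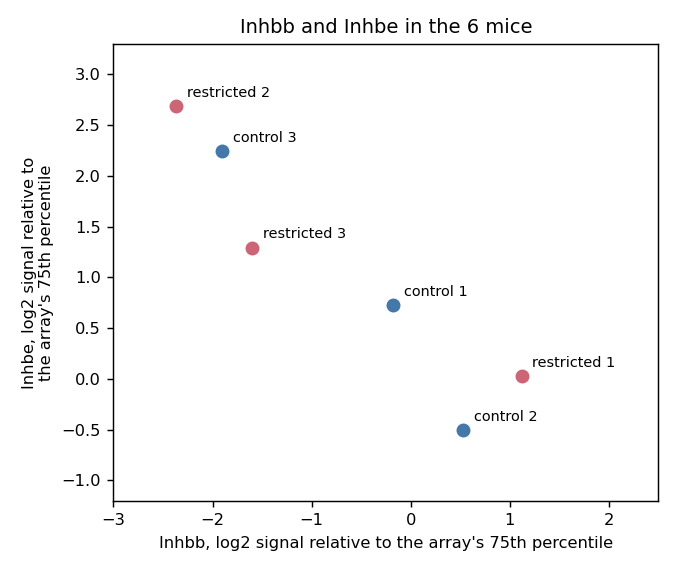
Log2 signal of Inhbb (horizontal) and Inhbe (vertical), each relative to the 75th percentile of the array, 1 point per mouse and labelled by diet and mouse number. Mice of both diets lie at either end of a falling line.

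The promoters of the 3 ligand genes that fell are shown because their base composition differs. The 250 bases before the annotated RefSeq start were searched for 7 of the 10 members (8 promoters), on both strands, for 4 short motifs. Tgfb3, Smad7 and Fst were not among those searched, which does not mean that they lack a RefSeq promoter. The TATA box was searched as TATAAA. The box bound by the factor SP1 was searched as GGGCGG. The core motif bound by SMAD proteins was searched as CAGAC. The motif of the factor AP-1 was searched as TGANTCA. Capitals mark every match, and no matches overlap. On GRCm38.p6 the windows are chr7:25686752-25687001 (plus strand) for Tgfb1, chr1:186705990-186706239 (minus strand) for Tgfb2 and chr13:16011601-16011850 (plus strand) for Inhba.
Tgfb1: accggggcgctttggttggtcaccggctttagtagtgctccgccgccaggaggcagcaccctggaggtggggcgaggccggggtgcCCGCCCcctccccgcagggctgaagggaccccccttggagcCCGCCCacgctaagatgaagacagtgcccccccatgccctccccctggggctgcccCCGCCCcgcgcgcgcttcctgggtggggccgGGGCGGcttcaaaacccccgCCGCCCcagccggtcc
Tgfb2: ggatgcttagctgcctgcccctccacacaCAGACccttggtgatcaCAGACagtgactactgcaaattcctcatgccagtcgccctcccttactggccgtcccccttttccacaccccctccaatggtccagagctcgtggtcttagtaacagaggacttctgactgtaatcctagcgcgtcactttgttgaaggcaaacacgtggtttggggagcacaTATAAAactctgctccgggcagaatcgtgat
Inhba: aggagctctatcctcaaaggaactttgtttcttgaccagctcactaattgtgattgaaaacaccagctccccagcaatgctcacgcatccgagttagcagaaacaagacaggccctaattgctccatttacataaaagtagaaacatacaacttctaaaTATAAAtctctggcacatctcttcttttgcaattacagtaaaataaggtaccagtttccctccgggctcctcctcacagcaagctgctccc
The Tgfb1 window was 75.2% G or C and held 5 SP1 boxes and no TATA box. That of Tgfb2 was 53.6% G or C, with 1 TATA box whose first base lies 31 bases before the start and 2 SMAD motifs. The Inhba window was 43.2% G or C and held 1 TATA box, whose first base lies 91 bases before the start. Over all 32851 promoters the median was 52.4%, and 12.4% held a TATA box, 32.7% an SP1 box, 42.2% a SMAD motif and 6.7% an AP-1 site. A match is only a match of letters.

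Neither receptor gene passed the test. Tgfbr1, the type I receptor, measured 1.03, 0.63 and 1.03 in the control mice and 0.63, 0.18 and 0.20 in the restricted mice, where restricted mouse 1 lay at the level of control mouse 2. Its difference was -0.56 (SE 0.21, adjusted p = 0.0903), and its second probe gave -0.46 (SE 0.17, adjusted p = 0.0855 over every probe). Tgfbr2, the type II receptor that binds the ligand first, measured 2.08, 2.09 and 1.38 in the control mice and 1.71, 1.45 and 1.26 in the restricted mice. It differed by -0.38 (SE 0.25, adjusted p = 0.313), with a second probe at -0.50 (SE 0.22, adjusted p = 0.133). All 4 probes of the receptors lay lower on average in restricted mice, by less than Tgfb1 or Tgfb2, a comparison between genes that was not tested. With array weights Tgfbr2 passed (-0.55, adjusted p = 0.0436), and with slide as a block the differences were -0.27 for Tgfbr1 and -0.13 for Tgfbr2.

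Both inhibitors were lower on the restricted diet. Fst measured 1.94, 3.11 and 3.00 in the control mice and 0.13, -0.18 and 0.43 in the restricted mice, so every restricted mouse lay well under every control mouse. The means were 2.68 ± 0.65 and 0.13 ± 0.31 (SD, n = 3 each), and it fell by 2.56 (SE 0.35, limma adjusted p = 0.00245; probe mm9 chr13:115243565-115243624), the largest difference among the 10 genes, at 5.88-fold. Its call held in each of the 18 other settings run (differences from -2.93 to -2.34), with -2.55 and adjusted p = 0.0239 with slide as a block and 0.036 within slide 1.

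Smad7, induced by TGF-beta as feedback, measured 0.62, -0.53 and -0.03 in the control mice and -1.45, -1.07 and -0.84 in the restricted mice, without overlap. It fell by 1.14 (SE 0.32, adjusted p = 0.037; probe mm9 chr18:75555371-75555430). This call ended without control mouse 1 or 3 or restricted mouse 1, 2 or 3 (adjusted p = 0.0869, 0.0651, 0.0999, 0.0925 and 0.0538). It ended too with slide as a block (-1.47, adjusted p = 0.0791, or 0.122 within slide 1) and with no background filter (0.0681).

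**Figure D4:**
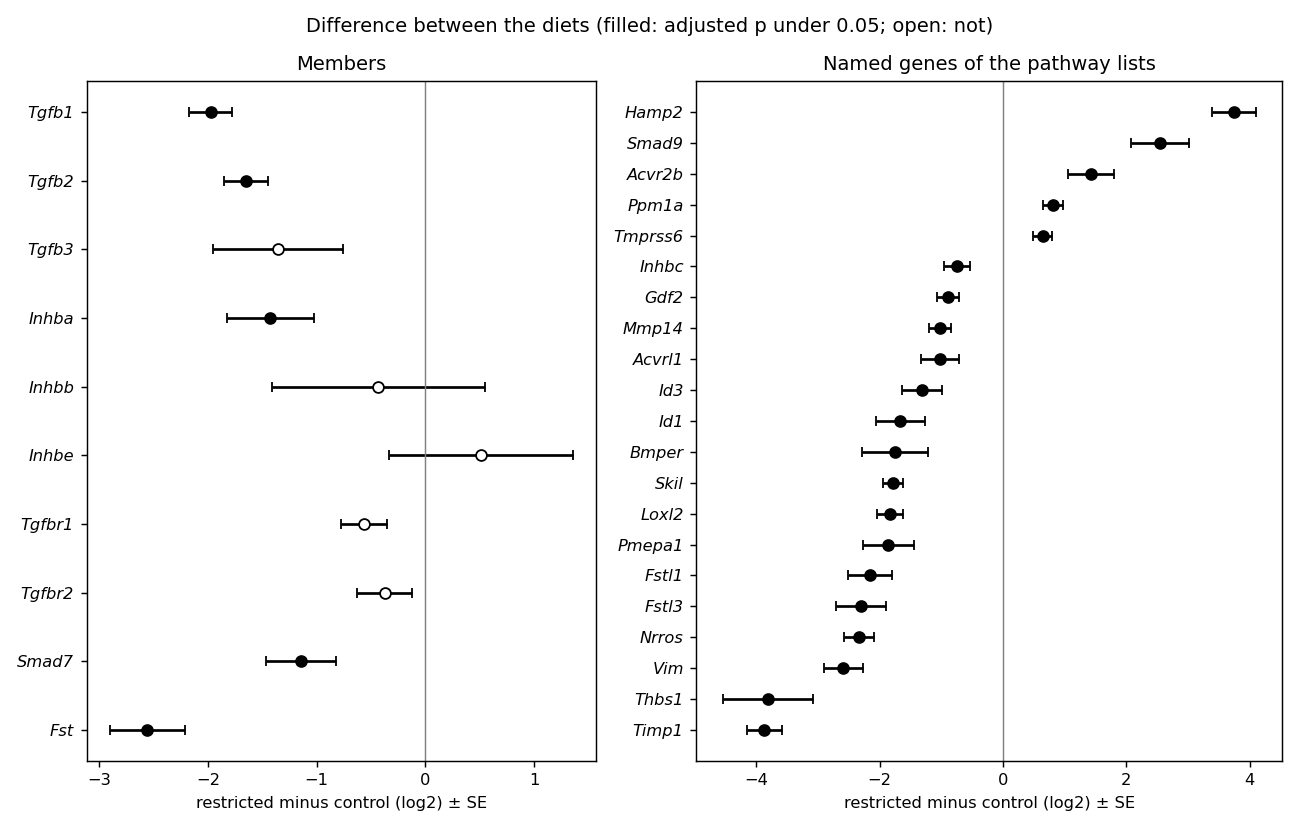
Difference between the diets (restricted minus control, log2) with its SE for the 10 genes (left) and for 21 named genes of the pathway (right); filled points passed at adjusted p under 0.05 and open points did not. Plau is left out because only a bound can be given. Fst fell most among the members, and Hamp2 and Timp1 lie at the ends on the right.

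The rest of the pathway was described over 7 lists that hold 122 other genes, of which 104 were tested. Of these 29 fell and 9 rose, 36.5% against 27.5% of all genes, with a median difference of -0.36 against 0.12. The counts were 19 lower and 3 higher with slide as a block and 13 and 1 within slide 1. In all 25 passed without control mouse 1, 19 without control mouse 2 and 21 without restricted mouse 2, in place of 38. Calls over all 19616 genes dropped as well, to 3687, 3344 and 3394 in these fits, in place of 5386. They dropped to 3013 with slide as a block, and fewer genes also passed within slide 1. The 36.5% and 27.5% therefore hold for the main fit only. Of the 22 genes named below by rule, 10 lost their call with slide as a block and 13 within slide 1, where Smad9, Ppm1a, Fstl3, Bmper, Gdf2, Inhbc, Acvr2b, Acvrl1, Id1, Id3, Tmprss6, Thbs1 and Mmp14 did not pass.

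**Figure D5:**
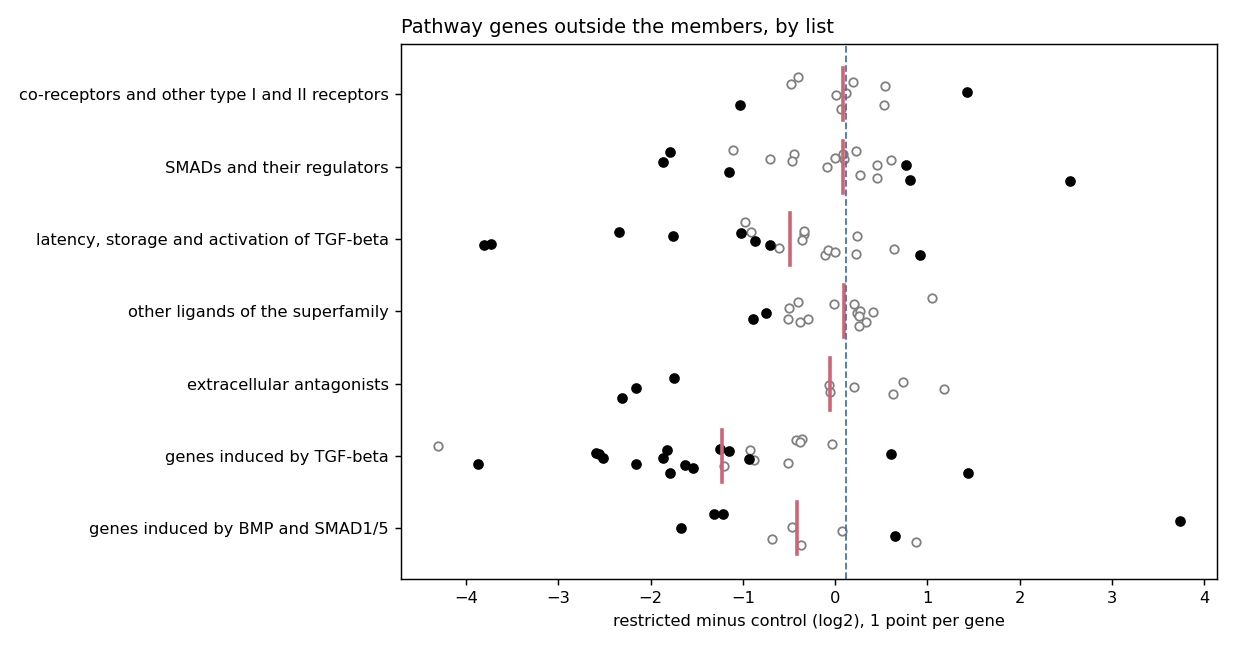
Each point is 1 tested gene, placed by its difference between the diets (restricted minus control, log2) within its list; filled points passed at adjusted p under 0.05. Red bars are list medians and the dashed line is the median of all genes tested (0.12). Plau and Bmp10, not well above background in any restricted mouse, are drawn at their fitted differences. Genes induced by TGF-beta lie lowest, with a median of -1.23.

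Of 24 tested genes that TGF-beta is known to induce, 13 fell and 2 rose, with a median of -1.23. The share called was 62.5%, against 27.5% of all genes. Timp1, an inhibitor of matrix proteases, measured 0.42, 0.40 and 0.18 in the control mice and -4.15, -3.10 and -3.37 in the restricted mice, and fell by 3.87 (SE 0.29, adjusted p = 0.000375), or by 2.43 with normexp background correction. Vim, the filament protein of mesenchymal cells and leukocytes, fell by 2.59 (SE 0.32, adjusted p = 0.00166). Skil, a SMAD repressor induced as feedback, fell by 1.79 (SE 0.16, adjusted p = 0.00059). The other Skil probe gave -1.54 and did not pass (SE 0.49, adjusted p = 0.058 over every probe). Loxl2, which cross-links collagen, fell by 1.83 (adjusted p = 0.0013), and its other probes gave -2.02, -0.57 and 0.21, so its probes disagreed. The classic target Ccn2, picked after its values were seen, did not pass (-0.38 ± 0.44 SE, adjusted p = 0.556). In this list 9 genes passed without control mouse 1 and 7 without control mouse 2, in place of 15. Calls over all genes were 3687 and 3344 in these fits, in place of 5386.

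Among the SMADs and their regulators 3 of 19 rose and 3 fell, with a median of 0.08. The share called was 31.6%, against 27.5% of all genes. All 3 that fell were also counted above among the genes induced by TGF-beta. Besides Skil, Pmepa1, a membrane protein that sequesters receptor-activated SMADs, fell by 1.87 (SE 0.41, adjusted p = 0.0164; its other probe gave -1.91). The Pmepa1 call ended without control mouse 1 or 2 (adjusted p = 0.0541 and 0.0596), and its difference was -1.001 with normexp background correction and -2.86 with slide as a block. Smad9, a signal transducer of the BMP branch, rose by 2.55 (SE 0.47, adjusted p = 0.00807), or by 1.20 with normexp background correction. Ppm1a, a phosphatase that acts on SMADs, rose by 0.81 (SE 0.16, adjusted p = 0.0106). With slide as a block Smad9 and Ppm1a did not pass (adjusted p = 0.0799 and 0.0528). Smad2, Smad3 and Smad4, the transducers of the TGF-beta branch, differed by 0.09, 0.08 and 0.27 and did not pass (picked after their values were seen). Without control mouse 2, 3 genes of this list passed in place of 6, and 3344 of all genes in place of 5386.

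Genes of latency, storage and activation fell more often than they rose, 7 against 1 of 20, with a median of -0.49. The share called was 40%, against 27.5% of all genes. Nrros, which holds latent TGF-beta on myeloid cells, measured 2.32, 2.33 and 2.67 in the control mice and -0.36, 0.41 and 0.25 in the restricted mice. It fell by 2.34 (SE 0.25, adjusted p = 0.000947). Thbs1, an activator of latent TGF-beta, fell by 3.81 (SE 0.73, adjusted p = 0.00964); the difference was -2.50 with normexp background correction and did not pass within slide 1 (adjusted p = 0.0647). Mmp14, a membrane-bound protease, fell by 1.02 (SE 0.17, adjusted p = 0.0061), or by 0.63 with normexp background correction, and did not pass within slide 1 (adjusted p = 0.0846). Plau, the urokinase that generates plasmin, was not well above background in any restricted mouse and was at least 4.72-fold lower (adjusted p = 0.00481 as fitted), a bound on the scale of the processed signals, set by the lowest of them well above background. With normexp background correction the Plau difference was -0.70 (adjusted p = 0.0177), smaller than that bound. Without control mouse 2 or restricted mouse 2, 5 of these genes passed in place of 8. Calls over all genes were 3344 and 3394 in these fits, in place of 5386.

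Secreted antagonists showed 3 decreases in 9 and no increase, a share of 33.3% against 27.5% of all genes. Fstl1, a follistatin relative of mesenchymal cells, fell by 2.16 (SE 0.36, adjusted p = 0.00573). Fstl3, which binds activins as follistatin does, fell by 2.31 (SE 0.40, adjusted p = 0.00647), or by 1.04 with normexp background correction, and did not pass with slide as a block (adjusted p = 0.0728). Bmper, a secreted binder of BMPs, fell by 1.75 at the edge of the threshold (SE 0.54, adjusted p = 0.0498). Its call ended without control mouse 1 or 3 or restricted mouse 2 or 3 (adjusted p = 0.12, 0.0778, 0.111 and 0.128), with slide as a block (-1.05, adjusted p = 0.388), and with quantile normalization, median scaling, array weights or no background filter (0.0584, 0.0644, 0.0504 and 0.0887).

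Of 16 other ligands tested, 2 fell and none rose, a share of 12.5% against 27.5% of all genes. Gdf2, a BMP made in liver that acts on endothelium, fell by 0.89 (SE 0.18, adjusted p = 0.0126), a call that ended without control mouse 2 or restricted mouse 2 (adjusted p = 0.0521 and 0.0541) and with slide as a block (0.0718). Inhbc, the hepatocyte beta C subunit, measured 1.04, 0.97 and 0.76 in the control mice and 0.07, 0.51 and -0.04 in the restricted mice. It fell by 0.75 (SE 0.21, adjusted p = 0.0356), and the call ended without control mouse 1 or 2 or restricted mouse 1 or 3 (adjusted p = 0.108, 0.109, 0.094 and 0.106). It also ended with slide as a block (-0.86, adjusted p = 0.122), median scaling (0.0689) and no background filter (0.0632).

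The other receptors included 1 gene that rose and 1 that fell among 10, a share of 20% against 27.5% of all genes. Acvr2b, an activin type II receptor, rose by 1.43 (SE 0.37, adjusted p = 0.0286), and Acvrl1, a receptor of endothelial cells, fell by 1.03 (SE 0.31, adjusted p = 0.0483). The Acvr2b call ended without control mouse 1 or 2 or restricted mouse 2 or 3 (adjusted p = 0.0831, 0.0784, 0.0728 and 0.0825) with slide as a block (0.228) and with no background filter (0.0556). That of Acvrl1 ended without control mouse 2 or 3 or any restricted mouse (adjusted p = 0.144, 0.104, 0.117, 0.0924 and 0.0602), and was kept with slide as a block (0.045) but not within slide 1 (0.0807) or with no background filter (0.0849).

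Genes induced by the BMP branch moved both ways, with 3 of 10 lower and 2 higher, a share of 50% against 27.5% of all genes. Id1 and Id3, helix-loop-helix inhibitors of differentiation factors, fell by 1.67 (SE 0.40, adjusted p = 0.0221) and 1.32 (SE 0.32, adjusted p = 0.0239). Neither passed without control mouse 2 (adjusted p = 0.0533 and 0.0725), restricted mouse 2 (0.0593 and 0.0637) or restricted mouse 3 (0.0645 and 0.0611), nor with slide as a block (0.151 and 0.23). Id3 was also lost without control mouse 1 (0.0728). Hamp2, the second mouse hepcidin gene, measured 1.09, 2.30 and 2.41 in the control mice and 5.83, 5.53 and 5.67 in the restricted mice, and rose by 3.74 (SE 0.36, adjusted p = 0.000689). The first hepcidin gene, Hamp, did not rise and did not pass (-0.68, SE 0.41, adjusted p = 0.265). Its probe was saturated on 2 arrays, and it was picked after its values were seen. Tmprss6, a protease that restrains hepcidin, rose by 0.64 (SE 0.15, adjusted p = 0.0216). The Tmprss6 call ended without any mouse but control mouse 3 (adjusted p = 0.0605, 0.083, 0.0624, 0.0803 and 0.0525), with quantile normalization (0.30, adjusted p = 0.178) and with slide as a block (0.105). In this list 3 genes passed without control mouse 1, 2 without control mouse 2 and 1 without restricted mouse 2 or 3, in place of 5. Calls over all genes were 3687, 3344, 3394 and 4127 in these fits, in place of 5386.

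Markers of the cells that make or carry these genes differed between the diets in the same mice. For comparison, 12.8% of all genes fell and 14.6% rose. All 15 macrophage and Kupffer cell markers fell, with a median of -2.37, and their summed signal, in units of the 75th percentile of the array, was 256 to 337 in control mice and 44.4 to 64.7 in restricted mice. Of 14 stellate cell and myofibroblast markers 7 fell (summed signal 101 to 135 against 46.6 to 73.3), 3 of them also counted in the pathway lists. Of 7 tested platelet and megakaryocyte markers, from cells that store TGF-beta, 5 fell (4.52 to 6.84 against 0.877 to 1.47). Endothelial markers went the other way, with 5 of 13 higher and none lower (26.2 to 39.4 against 44.7 to 59.7). Of 8 bile duct markers 3 fell (6.41 to 7.11 against 1.25 to 3.48). The 10 neutrophil markers had 6 lower and 1 higher (151 to 183 against 91.8 to 135), with the lowest median of these lists, -3.73. Among 11 T and NK cell markers 3 fell (31.6 to 49.3 against 28.0 to 39.4, which overlap). Among 4 B and plasma cell markers 2 fell (2.20 to 2.58 against 0.58 to 1.57). The brightest probes weigh most in a summed signal. Medians of the other lists were -0.95 (stellate), -1.37 (platelet), 1.04 (endothelial), -1.67 (bile duct), -0.91 (T and NK), -0.98 (B and plasma) and 0.39 (hepatocyte). Hepatocyte markers summed to 992 to 1410 in control mice and 1260 to 1620 in restricted mice. No marker of these lists was below background on every array, and their part in the differences of Tgfb1, Tgfb2, Inhba, Smad7 and Fst was not tested.

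Likeness of pattern was measured as the root mean square distance, in log2 units, between 6 values each centred on the gene's own mean, over 13894 genes with an ordinary symbol. The measure mixes the diet difference with the spread between mice. As the values were not scaled, genes that vary little have close neighbours and genes that spread widely have few, whatever their pattern. Nearest to Tgfb1 were Gng10 (0.0837) and Pkmyt1 (0.0901), to Tgfb2 Prkar2b (0.0778) and Ttyh3 (0.0912), to Inhba Gvin1 (0.115) and Mcoln2 (0.121), to Smad7 Ptger2 (0.212) and Tha1 (0.227), and to Fst Trps1 (0.263) and Ak8 (0.276). The receptors had close neighbours, Ddost (0.0528) and Olfr452 (0.0598) for Tgfbr1 and Kctd6 (0.0542) and Rras2 (0.0621) for Tgfbr2. The genes that spread within a diet had none as close: Sdcbp2 (0.309) for Tgfb3, Thbd (0.334) and Zbtb16 (0.415) for Inhbb, and Zfp78 (0.504) and Pdxp (0.528) for Inhbe. Among the members themselves the closest pair was Tgfb1 and Tgfb2 (0.23), whose probes share the aligned stretch shown above, followed by Tgfbr1 and Tgfbr2 (0.344).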

How the data were processed

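The intensity values are the processed signals of the deposited scanner files, detrended in space and in scale per the file headers, which name Agilent Feature Extraction 10.7.3.1; the submitters' processing notes name 9.3.2.1. The array design is 026655, and the probe positions in its files are on mm9. The deposited value table equals these signals within 0.1% for 99.80% to 99.87% of probes (column medians 27.52 to 52.12, so linear and not centred).

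Control spots and outlier spots were dropped, replicate spots were averaged as log2 values, and each array was scaled to its 75th percentile. The filter kept 24234 of 39429 probes, those well above background in every measured mouse of one diet or of both, and each gene name took its brightest probe (19616 genes). RefSeq accessions updated the names (26055 probes matched). The diets were compared with limma 3.58.1 in R 4.3.3, with Benjamini-Hochberg adjustment over all genes and a threshold of 0.05. The 3 arrays per diet limit the precision. The code was tested on simulated data.

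Members and lists were chosen with earlier results of these data known. Named genes were all members, up to 4 called genes of each list with the smallest p, and the 2 genes most like each member; exceptions are stated where they occur, and 1 gene that the rule names is not reported here. Promoters are RefSeq's (GRCm38.p6). Alternatives covered background correction, scaling, the value table, filters, spread models, blocks for mouse number and for slide, the mice of slide 1 only, omission of each mouse in turn, all probes, and other thresholds.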

Additional observations from a re-analysis of the deposited data

How the results depend on the processing

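Tgfb1, Tgfb2 and Fst kept their direction and call in all 18 other fits, Inhba and Smad7 kept their direction in all 18 and their call in 10, and no member was called higher in any. The number of members called was 3 in place of 5, all lower, with no background filter, within slide 1 and at adjusted p under 0.01, and 3 to 4 on leaving out each mouse. Without the filter 5 pathway genes rose in place of 9, among 122 tested. With slide as a block 3013 genes were called in all (1121 higher), among them 22 pathway genes (3 higher, 19 lower). Within slide 1 the counts were 2254 (656 higher, 1598 lower) and 14 (1 higher, 13 lower). Array weights gave 8368 genes (4863 higher). At adjusted p under 0.01 there were 2533 (1117 higher, 1416 lower) and 14 pathway genes (3 higher, 11 lower); the stricter threshold is its own cause, and for the other settings the cause was not tested. On leaving out each mouse, 3344 to 5818 genes were called (1549 to 3319 higher, 1750 to 2499 lower), and 19 to 37 pathway genes (4 to 10 higher, 15 to 29 lower). The sign of Inhbb turned with slide as a block and within slide 1 (1.64), without control mouse 2 (0.09) and without restricted mouse 2 (0.28), and that of Inhbe in the same fits (-0.79, -0.15 and -0.16). On leaving out each mouse Inhbb ran from -1.47 to 0.28 and Inhbe from -0.16 to 1.23. Higher calls were 53.2% of all calls, 37.2% with slide as a block, 29.1% within slide 1 and 61.2% with median scaling, and 50% with quantile normalization. Median scaling puts the median of all genes at 0.21 in place of 0.12.

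The labels do not say whether mouse number pairs the mice. Uncentred arrays of different diets correlated at 0.925 to 0.947. To compare mouse numbers, each gene was centred on its mean within each diet, and these deviations were correlated across the diets. As deviations cancel within a diet, such correlations cannot all be positive. The correlations of same-numbered mice were 0.384, -0.00224 and 0.482. Those of differently numbered mice ran from -0.499 to 0.118, and pairing was not tested. With mouse number as a block 5 members (all lower), 43 pathway genes and 6623 genes in all were called, and it changed no call of a member. With 3 mice per diet, limits lie in the spread between mice; normexp background correction, with its offset of 50, shrank differences of dim probes such as those of Tgfb2 and Inhba.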

Other observations

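Control mouse 3, which stood with the restricted mice for Tgfb3, also had the lowest control value of Sphk1 and Thbs1, picked here after their values were seen. Sphk1, a sphingosine kinase, measured 1.57 and 1.95 in control mice 1 and 2, -0.52 in control mouse 3, and -1.19, -1.86 and -1.48 in the restricted mice. Thbs1 measured 0.61, 1.61 and -1.42 in control mice 1 to 3 and -4.00, -3.74 and -2.88 in the restricted mice. For Tgfb1 and Fst that mouse was not the lowest of the controls (-0.60 and 3.00).

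Timp3, a matrix-bound inhibitor of metalloproteases that was also picked after its values were seen, moved against most genes induced by TGF-beta. It measured -0.08, 0.36 and 0.13 in the control mice and 1.29, 1.63 and 1.81 in the restricted mice, and rose by 1.44 (SE 0.21, limma adjusted p = 0.00327), while its relative Timp1 fell.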
